A study of Homo sapiens with 6 samples.

Results

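The chromatin occupancy of ZNF469 was examined at 10 genes that encode the contractile and adhesion machinery of activated hepatic stellate cells: ACTA2, TAGLN, MYL9, CNN1, TPM1, TPM2, CALD1, ACTN1, MYH9 and VCL. The genes were chosen by function, with earlier results of these data known. The windows examined were the gene bodies plus 20 kb on each side, in GENCODE version 44 on hg38. Of the 19108 regions called for full-length ZNF469, 32 lay in these windows, or 0.168% of the list. Of the 54 regions called for ZNF469 with most of its zinc fingers deleted (dZF-ZNF469), 0 did.

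The regions come from CUT&RUN, an assay that tethers a nuclease to an antibody on chromatin, here after formaldehyde fixation per the study's methods, and sequences the fragments it releases. Both groups were LX-2 cells, an immortalized human hepatic stellate cell line, with a piggyBac transgene driven by doxycycline. One group expressed full-length ZNF469 (clone3.4 in the labels) and the other dZF-ZNF469 (clone3.1), each from a construct with an N-terminal 3xHA tag. Both groups were given 1 ug/mL doxycycline for 24 h and were profiled with an antibody against ZNF469 in 3 libraries each. The antibody also recognizes the cells' own ZNF469, which both groups carried. Whether the clone names refer to cells or to plasmids is not given in the labels. Each construct was in a line of its own, so an effect of the construct and other differences between the lines cannot be told apart. The 3 libraries of a group were combined by the authors into 1 list, so no SD over replicates and no test between groups could be computed. The lists hold no RNA values, and the stellate identity of the cells could not be checked against marker genes.

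Activated stellate cells acquire a contractile phenotype, in which bundles of actin and myosin II pull on the surrounding matrix through focal adhesions. Many genes of this program are textbook targets of serum response factor (SRF), which binds the CArG box, and of its actin-sensing cofactors of the MRTF family. AP-1, the dimer of FOS and JUN proteins, is a further factor induced as stellate cells activate, and it binds a nearly palindromic heptamer. Because the 10 genes include well-known SRF targets, CArG boxes near their promoters are not independent of how the genes were chosen.

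Of the 32 regions, 6 are printed here because they carry the findings on promoters, introns and motifs described afterwards. Regions are numbered along each gene from its upstream side, and the sequences read 5′ to 3′ on the strand of the gene. Capitals mark an exact CArG box (CC, 6 bases that are A or T, GG) or an AP-1 heptamer (TGACTCA, or TGAGTCA on the opposite strand). The leading 3 sequences span 40 bases on either side of the summit. The next 3 span 100 bases on either side of the summit. All are read from hg38.
VCL region 1, chr10:73997817-73997897, plus strand: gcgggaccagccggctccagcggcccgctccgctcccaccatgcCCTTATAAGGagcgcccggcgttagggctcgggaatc
ACTN1 region 2, chr14:68977695-68977775, minus strand: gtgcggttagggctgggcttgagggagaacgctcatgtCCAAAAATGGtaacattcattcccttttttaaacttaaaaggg
MYH9 region 7, chr22:36329552-36329632, minus strand: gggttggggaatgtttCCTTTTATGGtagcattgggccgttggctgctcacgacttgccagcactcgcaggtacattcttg
VCL region 3, chr10:74021364-74021564, plus strand: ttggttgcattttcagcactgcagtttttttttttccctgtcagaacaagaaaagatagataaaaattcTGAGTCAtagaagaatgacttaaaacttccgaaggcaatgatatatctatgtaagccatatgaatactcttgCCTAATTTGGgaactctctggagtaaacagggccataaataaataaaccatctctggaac
ACTN1 region 3, chr14:68951188-68951388, minus strand: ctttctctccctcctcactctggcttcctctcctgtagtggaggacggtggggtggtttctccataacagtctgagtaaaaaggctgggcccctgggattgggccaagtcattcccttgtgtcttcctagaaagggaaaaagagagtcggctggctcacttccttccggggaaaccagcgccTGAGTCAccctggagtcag
CALD1 region 6, chr7:134920101-134920301, plus strand: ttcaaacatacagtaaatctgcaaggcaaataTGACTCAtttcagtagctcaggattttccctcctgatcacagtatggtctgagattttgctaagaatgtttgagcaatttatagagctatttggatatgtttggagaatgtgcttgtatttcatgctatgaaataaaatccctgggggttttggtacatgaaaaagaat

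Full-length regions were found at 9 of the 10 genes, where 52.0% of 20007 protein-coding genes had one under the same window. A region overlapped the body of 8 of 10 genes, against 33.7% of all genes. A region within 3 kb of one of the gene's own transcription starts was found at 8 of 10, against 27.5% of all genes, and the count was also 8 within 1 kb. TAGLN was the gene without any region. At least 4 regions were present at 5 genes (TPM1, CALD1, ACTN1, MYH9 and VCL), which 6.45% of all genes reached. At least 6 were present at 3 genes (CALD1, MYH9 and VCL), which 2.2% reached. The dZF list gave 0 of 10 genes, where 0.125% of all genes had a dZF region, so a count of 0 among 10 genes is near the background. The nearest dZF record was between 1333 kb (CNN1) and 78370 kb (CALD1) away, and chromosomes 11, 9 and 22, which hold TAGLN, TPM2 and MYH9, had no dZF record.

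The 10 genes differed widely in length, from 8.07 kb (TPM2) to 226.5 kb (CALD1). Their median length was 42.8 kb, against 27.5 kb over all protein-coding genes. Per 100 kb of window the 10 genes held 2.94 regions and all protein-coding genes 1.01. The regions were unevenly shared out, since 23 of 32 (71.9%) were at CALD1, ACTN1, MYH9 and VCL.

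**Figure D1:**
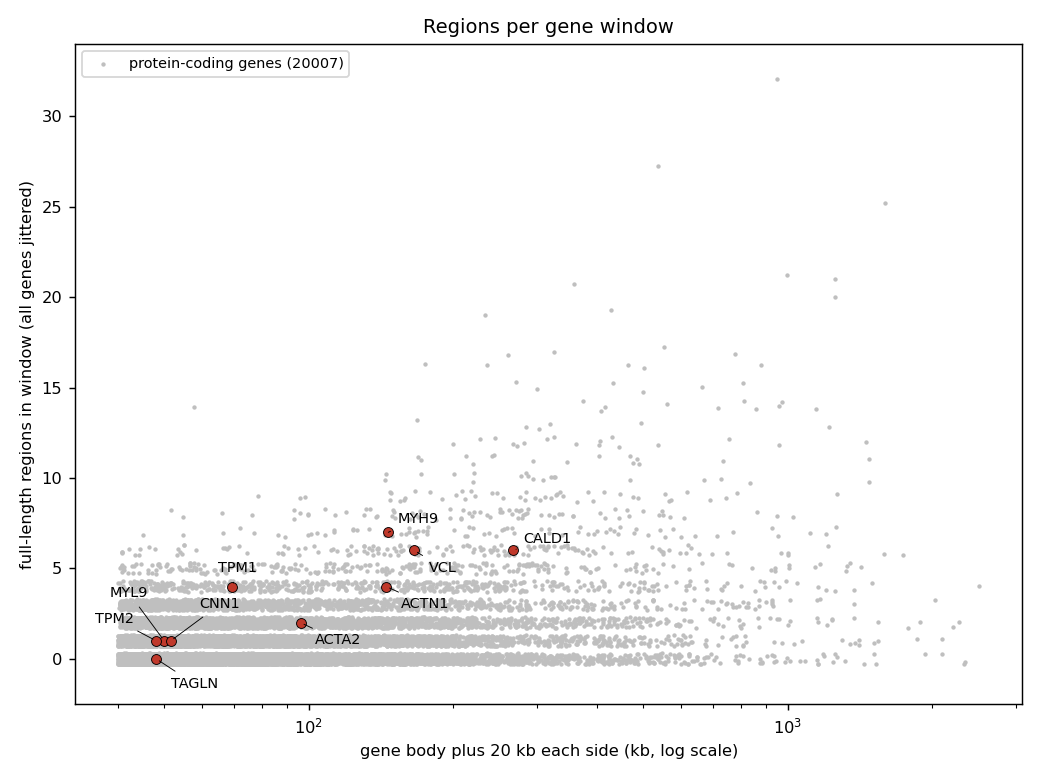
Number of full-length regions in the gene body plus 20 kb on each side (vertical axis) against the size of that window in kb (horizontal log axis). Grey points are the 20007 protein-coding genes, moved up or down slightly at random so that they can be seen, and red points are the 10 actomyosin genes, from 0 regions at TAGLN to 7 at MYH9.

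Depth at each region was recovered from the deposited values. The pileup is the number of fragments of the pooled libraries over the summit, and the local background is the number the peak caller expected there. The fold is the pileup plus 1, divided by the background plus 1. For most of the 32 regions the pileup is followed in brackets by its exact 95% Poisson limits, which reflect counting error alone. The 32 regions had a median pileup of 23.5 fragments, with quartiles of 18 and 34.8, while the whole list had a median of 20 and quartiles of 16 and 27. Their median background was 2.50 fragments, against 1.82 in the list, and 24 of 32 (75%) lay above the list's median background. Their median fold was 6.69, below the 7.36 of the list. A pileup at or above the upper quartile of the list was reached by 14 of 32 (43.8%), against 26.1% of the list. A fold at or above the upper quartile was reached by 5 of 32 (15.6%), against 25% of the list.

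**Figure D2:**
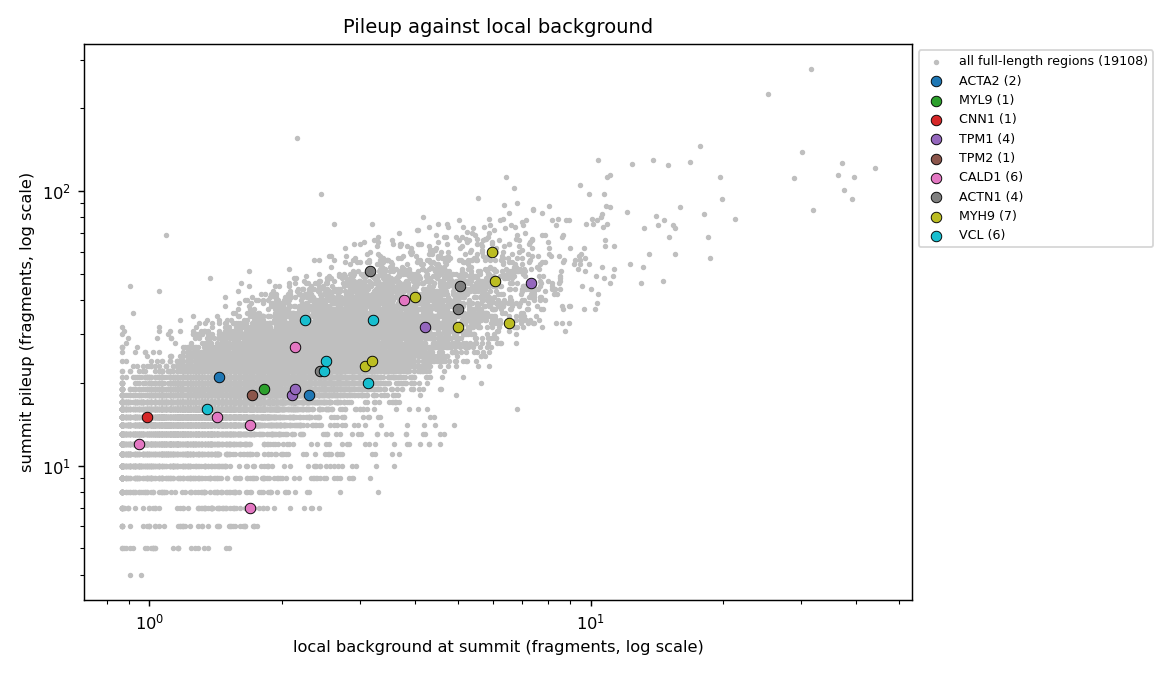
Summit pileup in fragments (vertical log axis) against the local background in fragments (horizontal log axis) for the 19108 full-length regions in grey and the 32 regions at actomyosin genes in colour, with the number of regions per gene in brackets. The regions of MYH9, ACTN1 and TPM1 include the highest backgrounds of the 32, up to 7.31 fragments, and CALD1 holds the lowest pileup, 7.

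Promoters were the main annotation class. A region was called a promoter region when it lay within 3 kb of a transcription start of any gene, coding or not. This class held 19 of 32 regions (59.4%, 95% Wilson interval 42.3 to 74.5), against 39.3% of the list. Introns held 8 (25%, 13.3 to 42.1), against 35.8%. Distal intergenic DNA held 3 (9.38%) and exons 2 (6.25%), against 21.6% and 1.61%. Regions of the same gene are not independent, and the intervals cover counting error only. The windows follow genes, whereas the list covers the whole genome, so a higher promoter share and a lower intergenic share are partly built in. The number of annotated starts per gene, from 2 (MYL9) to 34 (TPM1), also bears on the promoter share. Of the 32 regions, 17 lay within 3 kb of a start of their own gene, and 9 of them within 3 kb of the start of the reference transcript. Promoter regions had a median pileup of 32 fragments (range 15 to 60) and intronic regions 22 (range 7 to 51), where the same classes in the whole list had medians of 21 and 20. The median background of the promoter regions was 3.78 fragments, against 1.88 for all promoter regions of the list.

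**Figure D3:**
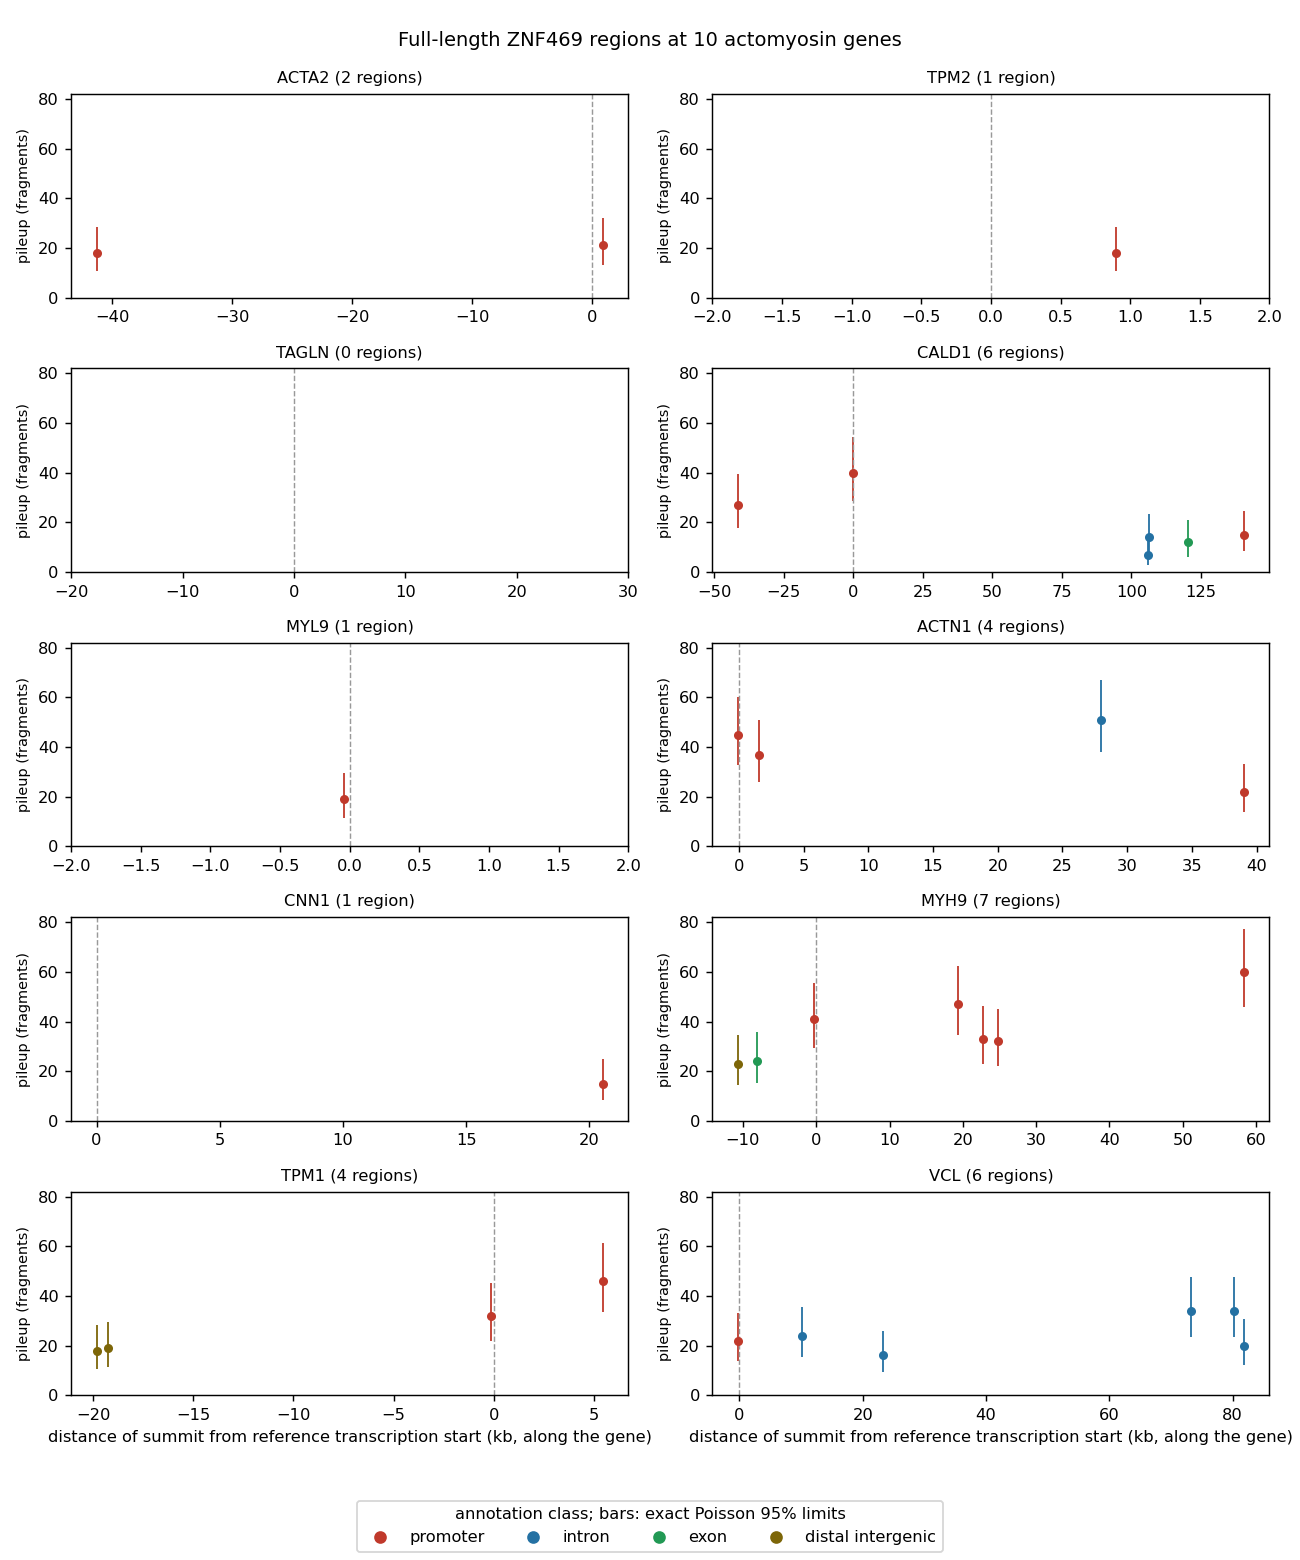
Summit pileup in fragments (vertical axis) against the summit's distance in kb from the reference transcript start (horizontal axis, 1 scale per gene, dashed line at the start) for each of the 32 regions. Bars show the exact 95% Poisson limits and colours are annotation classes. MYH9 region 7 has the highest pileup, 60, and the TAGLN panel is empty.

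The contractile actin and its partners had few regions, all of moderate height. ACTA2 (chr10:88935074-88991339, minus strand) encodes smooth muscle alpha-actin, the classical marker of stellate cell activation, and had 2 regions. ACTA2 region 2 (chr10:88951674-88951984) lay in intron 1 with its summit 0.891 kb inside the reference transcript. Its pileup was 21 fragments (13.0 to 32.1) over a background of 1.44, a fold of 9.01. The same interval also lies in the body of the overlapping gene STAMBPL1, and within 3 kb of a start of FAS, the neighbouring death receptor gene. ACTA2 region 1 (chr10:88993992-88994249) lay 41.3 kb upstream of the reference start and inside FAS, also near a FAS start. Its summit was also 2745 bp upstream of an alternative ACTA2 start, so it counted among the regions within 3 kb of a start of their own gene. It had a pileup of 18 fragments (10.7 to 28.5), a fold of 5.76 and a background of 2.3.

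TAGLN (chr11:117199370-117207464, plus strand) encodes transgelin, an actin-binding protein of the calponin family. No full-length region was found in its window, and the nearest lay 20.6 kb from the gene, just beyond the 20 kb flank. CNN1 (chr19:11538767-11550323, plus strand) encodes calponin, which binds actin and lowers myosin ATPase activity. Its single region (chr19:11559213-11559604) lay 8.89 kb beyond the end of the gene, at the starts of ELOF1 and ZNF627. That region had a pileup of 15 fragments (8.40 to 24.7), a background of 0.989 and a fold of 8.05. Neither gene therefore had a region at its own promoter or in its body.

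Tropomyosins run along the actin filament and gate its use by myosin, and caldesmon binds both. TPM1 (chr15:63042620-63071915, plus strand) had 4 regions. TPM1 region 3 (chr15:63042467-63042737) covered the start of the gene, with a pileup of 32 fragments (21.9 to 45.2) and a background of 4.22. TPM1 region 4 (chr15:63047531-63048332) lay at an internal start, 5.44 kb downstream of the reference start and in intron 2 of that transcript, and it overlapped TPM1-AS. It had a higher pileup, 46 fragments (33.7 to 61.4), but the limits of both promoters overlapped. Its background of 7.31 fragments was the highest of the 32, and its fold was 5.65. TPM1 regions 1 and 2 formed a pair in intergenic DNA 19.8 and 19.3 kb upstream of the start, with pileups of 18 and 19 fragments.

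TPM2 (chr9:35681992-35690056, minus strand) had 1 region (chr9:35688847-35689149), which spanned the boundary of exon 2 and intron 2 with its summit 0.901 kb from the reference start. Its pileup was 18 fragments (10.7 to 28.5), its background 1.71 and its fold 7.01. CALD1 (chr7:134744252-134970729, plus strand), at 226.5 kb, was the longest of the 10 genes and had 6 regions. CALD1 region 2 (chr7:134779151-134779855) covered the reference start and was the highest of the gene, with 40 fragments (28.6 to 54.5), a background of 3.78 and a fold of 8.58. CALD1 region 1, 41.6 kb upstream of that start, had 27 fragments (17.8 to 39.3). It counted as a promoter region through a start of the pseudogene TUBB3P2.

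The remaining 4 regions of CALD1 all lay in intron 3 of the reference transcript, between 106.1 and 140.6 kb from its start, and were low. CALD1 regions 3 and 4 were 62 bp apart and had pileups of 7 (2.81 to 14.4) and 14 (7.65 to 23.5) over the same background of 1.69 fragments. CALD1 region 3 was 103 bp wide, the smallest width found in the list, and its fold of 2.97 was the lowest of the 32. CALD1 region 5 had 12 fragments (6.20 to 21.0) and overlapped an exon of another transcript. CALD1 region 6 (chr7:134919978-134920279) had 15 fragments (8.40 to 24.7), 365 bp before an alternative start. By pileup, the promoter at the reference start stood above these 4 regions beyond counting error, as its lower limit exceeded each of their upper limits. Its background was also higher than theirs, and the gap in fold was narrower for some. CALD1 regions 4, 5 and 6 had folds of 5.58, 6.67 and 6.61, against 8.58 for CALD1 region 2.

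Non-muscle myosin II supplies the force of the stellate cell. MYH9 (chr22:36281280-36388010, minus strand) encodes its heavy chain IIA and had 7 regions, the most of the 10 genes, a number that 1.44% of protein-coding genes reached. MYH9 region 3 (chr22:36387992-36388594) covered the promoter, with 41 fragments (29.4 to 55.6), a background of 4.0 and a fold of 8.41. MYH9 region 7 (chr22:36329338-36329846), in intron 3 and 58.4 kb downstream of the reference start, had the highest pileup of the 32 regions. Its 60 fragments (45.8 to 77.2) over a background of 5.97 gave a fold of 8.75 and placed it at percentile 99.1 of the whole list by pileup. It counted as a promoter region through an alternative MYH9 start 640 bp downstream of its summit.

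Intron 1 of MYH9 held a cluster of 3 further regions, which also counted as promoter regions through alternative MYH9 starts. MYH9 region 5 overlapped such a start, and the summits of regions 4 and 6 lay 1928 and 1880 bp from one. MYH9 regions 4, 5 and 6, which were 19.3, 22.7 and 24.7 kb into the gene, had pileups of 47 (34.5 to 62.5), 33 (22.7 to 46.3) and 32 (21.9 to 45.2) fragments. Their backgrounds were 6.07, 6.55 and 5.01 fragments, and the fold of region 5 was 4.50. Upstream of the gene, MYH9 region 1, 10.7 kb away, and region 2, 8.15 kb away in an exon of the noncoding MYH9-DT, had 23 and 24 fragments. Over the 32 regions, 21 had an upper Poisson limit below the lower limit of MYH9 region 7.

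MYL9 (chr20:36541497-36551447, plus strand) encodes the regulatory light chain whose phosphorylation switches myosin II on. Its single region (chr20:36541357-36541566) covered the start, with a pileup of 19 fragments (11.4 to 29.7), a fold of 7.08 and a background of 1.82. The sequence within 100 bp of this summit had a GC content of 76.6%, the highest of the 32.

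Alpha-actinin and vinculin tie actin bundles to each other and to focal adhesions. ACTN1 (chr14:68874128-68979440, minus strand) had 4 regions, of which ACTN1 region 1 (chr14:68979305-68979820) covered the start with 45 fragments (32.8 to 60.2), a background of 5.06 and a fold of 7.59. ACTN1 region 2 (chr14:68977508-68977979), 1.57 kb downstream in intron 1, had 37 fragments (26.1 to 51.0) with its summit 81 bp before an alternative start. ACTN1 region 3 (chr14:68951027-68951556), deep in intron 1 at 28.0 kb, had 51 fragments (38.0 to 67.1) over a background of 3.17. Its fold of 12.5 was the highest of the 32 and stood at percentile 98.1 of the list. ACTN1 region 4, 39.0 kb from the start, had 22 fragments (13.8 to 33.3) and counted as a promoter region through an alternative ACTN1 start. By pileup, the intronic ACTN1 region 3 was thus as high as the promoter within counting error, and region 4 lay below region 3.

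VCL (chr10:73995193-74121363, plus strand) had 6 regions, 1 at the promoter and 5 in introns. VCL region 1 (chr10:73997761-73998116) had its summit 0.259 kb upstream of the reference start, with 22 fragments (13.8 to 33.3), a fold of 6.59 and a background of 2.49. The intronic VCL region 4 (chr10:74071223-74071651), in intron 4 at 73.3 kb, had 34 fragments (23.6 to 47.5) and a fold of 10.8, the second highest of the 32. VCL region 5, in intron 6 at 80.2 kb, also had 34 fragments, at a fold of 8.31. VCL regions 2, 3 and 6 had 24, 16 and 20 fragments at 10.2, 23.3 and 81.9 kb. By pileup, the limits of the promoter region overlapped those of all 5 intronic regions. Overlapping limits are not a test of a difference, and the intronic regions were not compared with each other.

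The pools differ in their lowest background, which was used as a rough guide to depth. The lowest background of the full-length list was 1.385 times that of the dZF list (0.865 against 0.625 fragments). When pileup and background of each full-length region were divided by this ratio, 28 of 32 regions (87.5%) kept a −log10 p-value above the lowest of the dZF list, 7.62, against 85.3% of all full-length regions. The 4 regions below it were ACTA2 region 1 and CALD1 regions 3, 4 and 5. The lowest dZF value belongs to the weakest record the authors kept and is not a detection limit. The full-length list itself goes down to 2.155, and read totals were not analysed. Whether depth accounts for the absence of dZF regions was not tested for any of the 32 regions.

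CArG boxes were next located at the summits. An exact box lay within 100 bp of the summit of 5 of 32 regions (15.6%, 95% Wilson interval 6.86 to 31.8), against 324 of 19108 regions (1.70%, 1.52 to 1.89) of the list. At the same window placed 1 kb to either side of the summits, 1 of 64 windows at the 10 genes (1.56%) and 1.15% of those of the list held a box. In RefSeq promoters (GRCh38.p14, 250 bases before to 50 after the start), 1.29% of 35116 held one. With 1 mismatch allowed, 14 of 32 regions (43.8%) and 18.2% of the list had a match. The 10 genes were chosen as contractile genes, so these shares describe SRF-type sequence at regions of genes known for it.

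The 5 regions with a box at the summit belonged to 4 genes. In VCL region 1, at the promoter, the box CCTTATAAGG was centred 8 bp from the summit and 255 bp upstream of the reference start. In ACTN1 region 2 the box CCAAAAATGG was 3 bp from the summit, beside the alternative start in intron 1. In MYH9 region 7, the region of highest pileup, the box CCTTTTATGG was 19 bp from the summit. The region of MYL9 was the other with a box. VCL region 3, in intron 1, carried CCTAATTTGG 45 bp from the summit, together with an AP-1 heptamer 28 bp on its other side, as the printed sequence shows.

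Over whole regions, 8 of 32 (25%, 13.3 to 42.1) held a box, against 3.54% of the list, and the 3 additional boxes were farther from the summit. They were CCAAAAAAGG in CALD1 region 2, 113 bp away, CCATATATGG in MYH9 region 3, 214 bp away, and CCAATTTTGG in CALD1 region 4, 411 bp away. Regions with a box had a median pileup of 29.5 fragments (range 14 to 60, 8 regions) and those without 23.5 (range 7 to 51, 24 regions), and these ranges overlapped. Of the 10 genes, 8 matched an entry among the RefSeq promoters, with 16 promoters in all. A region overlapped 6 of these promoters, at 5 genes, and 1 promoter, of ACTN1, held an exact box. This count misses other boxes near starts. TAGLN and MYL9 had no entry, yet carry exact boxes 152 and 130 bp upstream of their reference starts. The box of VCL region 1 is cut by the edge of the VCL promoter entry.

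Most boxes of these genes were outside the regions. The 10 windows together held 87 exact boxes, of which 8 (9.20%) lay in a region, where regions covered 1.28% of the windows. Boxes counted as outside include CCTAATTAGG, 3 bp from the edge of ACTA2 region 2, and CCTTTTAAGG, 6 bp from the edge of CALD1 region 6. Of the 12 boxes within 600 bp of a transcription start of the gene, 5 lay in a region, at 5 genes (MYL9, CALD1, ACTN1, MYH9 and VCL). Of the 75 boxes elsewhere, 3 did. At a limit of 1000 bp the counts were 6 of 16 and 2 of 71. Both limits were chosen after the data were seen.

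Several boxes at starts had no region. TAGLN carries boxes 279 and 152 bp upstream of its reference start (CCATAAAAGG and CCAAATATGG), and the nearest region was 20270 and 20397 bp from them. CNN1 carries boxes 30 and 22 bp from alternative annotated starts (CCTTATAAGG and CCAAAATTGG), with no region nearer than 12478 bp. These boxes lie 1073 and 7879 bp downstream of the CNN1 reference start. A box at a start was therefore not always accompanied by a region.

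**Figure D4:**
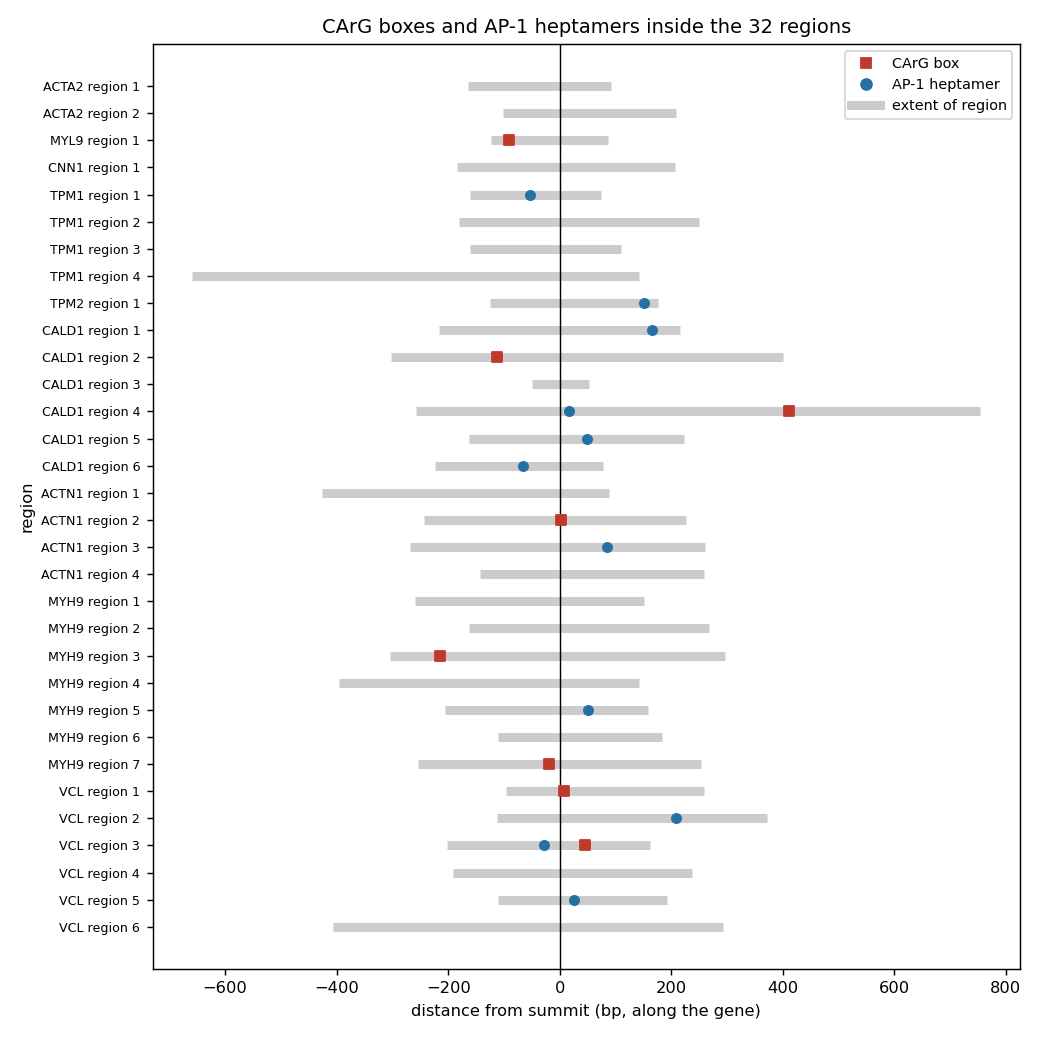
Position of exact CArG boxes (red squares) and AP-1 heptamers (blue circles) relative to the summit in bp along the gene (horizontal axis) for each of the 32 regions (vertical axis). Grey bars show the extent of each region. Boxes of VCL region 1 and ACTN1 region 2 sit 8 and 3 bp from the summit, and 2 regions hold both motifs.

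The AP-1 heptamer showed another distribution. It lay within 100 bp of the summit of 8 of 32 regions (25%, 13.3 to 42.1), against 32.3% (31.6 to 33.0) of the list. At the windows 1 kb away the shares were 2 of 64 (3.13%) and 3.25%, and 4.95% of RefSeq promoters held the heptamer. Within 50 bp the count was 3 of 32 (9.38%, 3.24 to 24.2), against 19.3% of the list. The share at the 10 genes was thus below that of the list in both windows, with an interval that included the list's share in the wider window and in the narrower one.

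AP-1 matches were mostly at non-promoter regions. Of the 13 regions outside promoters, 6 (46.2%, 23.2 to 70.9) had a heptamer within 100 bp, against 38.8% of such regions in the list. Of the 19 promoter regions, 2 (10.5%, 2.94 to 31.4) had one, against 22.2%. The 2 were CALD1 region 6, printed above, and MYH9 region 5. The others were TPM1 region 1, CALD1 regions 4 and 5, ACTN1 region 3, and VCL regions 3 and 5. In the region of highest fold, ACTN1 region 3, the heptamer was 85 bp from the summit. Over whole regions 11 of 32 (34.4%) held a heptamer, at 6 genes, and 2 regions, CALD1 region 4 and VCL region 3, held both motifs. The CRE octamer, which CREB and some AP-1 dimers bind, was found within 100 bp of 0 of 32 summits (upper Wilson limit 10.7%), against 0.691% of the list.

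**Figure D5:**
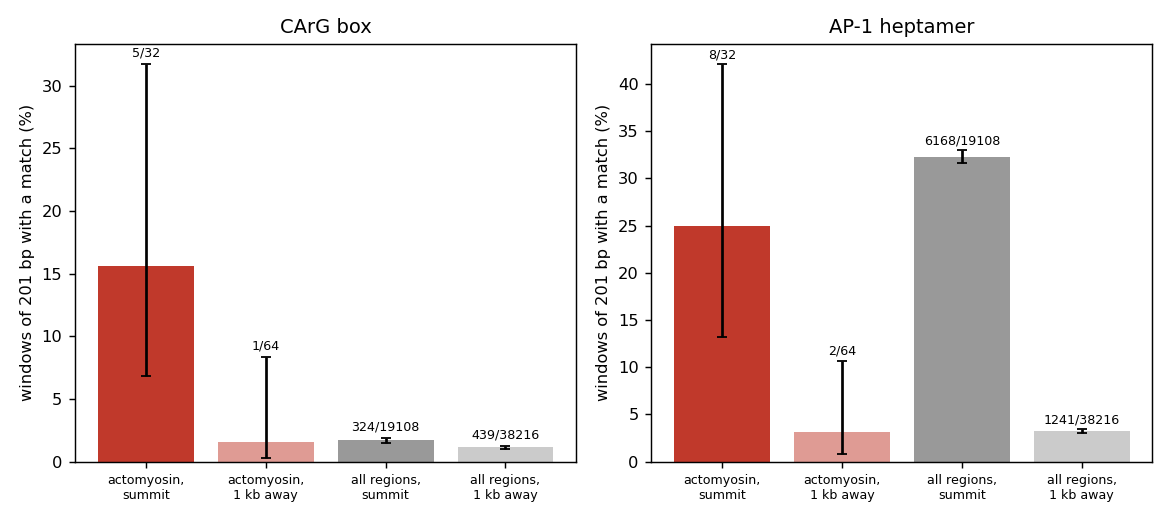
Share of windows of 100 bp on either side of a point with an exact CArG box (left) or an AP-1 heptamer (right), in percent (vertical axis), for the 32 regions at actomyosin genes (red) and all 19108 full-length regions (grey). Dark bars are windows at the summit, pale bars windows 1 kb to either side, numbers give windows with a match over all windows, and error bars are 95% Wilson intervals. CArG boxes were present at 15.6% of actomyosin summits and 1.70% of all summits.

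The wider actomyosin machinery was surveyed in 32 further genes, in 7 groups. A full-length region lay in the window of 25 of them (78.1%), 19 had one within 3 kb of a start of their own, and 0 had a dZF region. Over all protein-coding genes these shares were 52.0%, 27.5% and 0.125%. In the groups, to be read beside the same 52.0%, all 3 further calponin family genes, both further tropomyosins and all 4 cross-linkers had a region. Of the genes for myosin II and its control 7 of 10 had one, of the smooth muscle markers 4 of 5, and of SRF and its cofactors 4 of 5, the exception being MYOCD. Of the other actins, ACTG2 had regions, while the cytoplasmic actin genes ACTB and ACTG1 had none. The regions of ACTG2, TAGLN2, TPM3 and LMOD1 lay in the flanks alone, neither in the gene body nor within 3 kb of a start of the gene.

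The most regions were at MYLK, the kinase that phosphorylates the regulatory light chain, with 12 regions and pileups of 16 to 42 fragments (brackets for the next genes give the lowest and highest pileup over their regions). ACTN4, the other non-muscle alpha-actinin, had 7 (16 to 32), and MRTFA, an SRF cofactor, had 7 (9 to 23). FHL2, a LIM protein that binds SRF, had 6 (12 to 54), and RHOA, the GTPase upstream of stress fibres, had 5 (21 to 48). MYL12A had 4 (27 to 88), which were the same 4 regions as those of its neighbour MYL12B. These counts take in the 20 kb flanks: MYLK had 10 regions in its body, ACTN4 7, MRTFA 5, FHL2 6, RHOA 1 and MYL12A 2. SRF itself, named after its values were seen, had 1 region at its promoter with 64 fragments (49.3 to 81.7) and a CArG box within 100 bp of the summit. Over the 80 distinct regions at these genes, 4 (5.0%, 1.96 to 12.2) had a CArG box within 100 bp of the summit and 20 (25%) an AP-1 heptamer, against 1.70% and 32.3% of the list.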

How the data were processed

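CUT&RUN libraries of LX-2 cells were grouped by the labels, 3 per group. The authors aligned, pooled and called peaks before deposition. The submitters' processing notes name Bowtie2 2.3.4.3, MACS2 2.2.5 and hg38, and the control library is not given in the sources used here. For each record the authors deposited a fold enrichment ratio, a −log10 p-value, a score of reproducibility (up to 1000) and a summit offset. Read totals were not analysed here.

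From these, pileup and background were solved so that fold and −log10 p-value were both matched (all 19162 records, largest miss 6.9e-05). The procedure was checked on simulated data. Regions were assigned with GENCODE version 44. Motifs were searched on both strands. Python 3.11.15, pandas 2.3.3, numpy 2.4.6, scipy 1.17.1 and pysam 0.24.0 were used. RefSeq promoters (GRCh38.p14) were matched by symbol.

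The 10 genes, the lists and the motifs were chosen with earlier results of these data known, and windows 1 kb away and the TEAD hexamer were added after the plan. All 10 genes were named, with the 6 further genes that had most regions. No test was run, as each group is 1 pooled list. Alternatives covered the flank, promoter width, overlap, motif window, stringency and omission of MYH9. Some sequences are not reported here.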

Additional observations from a re-analysis of the deposited data

How the results depend on the processing

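Over 11 results and 92 alternatives, 78 values stayed within set limits and 14 did not. The limits were 1.5 times for a count, the 95% Wilson interval for a share, and the Poisson limits of the median pileup, scaled where needed, for a median. Within them, 4 shares still moved by over 1.5 times: the CArG share was 28.1% within 250 bp, 25% over whole regions and 10% in the upper 50% by fold, and the intron share was 40% in the upper 25% by fold. The 14 came from stricter lists and from motif settings. In the upper 50% of the list by fold, 10 regions were left at 6 genes, 4 genes had a promoter region and the median pileup was 37 fragments. In the upper 25% by fold, 5 regions were left at 5 genes, and 2 genes had a promoter region. In the upper 25% by pileup, 14 regions were left at 5 genes, 4 genes had a promoter region, the promoter share was 78.6%, the median pileup 38.5 and the median background 4.61 fragments. These lists hold fewer records by construction. With 1 mismatch the CArG share was 43.8%, and within 50 bp the AP-1 share was 9.38%. The dZF count was 0 under every alternative run.

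No paired analysis was possible because the deposited lists pool the 3 libraries of each group, and no library was left out for the same reason. Poisson limits cover counting error in a pool, not the spread between libraries. Pileups near 7 fragments leave wide limits, and 4 of the 32 regions would lie under the weakest record of the dZF list after scaling by the lowest backgrounds.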

Other observations

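The hexamer bound by TEAD factors, GGAATG or its reverse complement CATTCC, was examined after the other motifs. It lay within 100 bp of the summit of 11 of the 32 regions (34.4%, 95% Wilson interval 20.4 to 51.7), against 21.1% of the whole list. In windows 1 kb to either side the shares were 9.38% and 11.0%, and 14.0% of RefSeq promoters held it. ACTN1 region 2, MYH9 region 7 and VCL region 1 had both the hexamer and a CArG box within 100 bp of the summit. VCL region 4, the second highest by fold, had 2 hexamers and neither a CArG box nor an AP-1 heptamer.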
